A study of Mus musculus with 12 samples.

Results

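The 10 genes described here, Nanog, Esrrb, Tbx3, Klf2, Klf5, Tfcp2l1, Zfp42, Prdm14, Nr0b1 and Tcl1, are genes of the naive pluripotent state, among 20660 genes named on the arrays. They were found by the transcript accession that the files give for each probe, which gave 11 of 55681 non-control probes, 1 for each gene and 2 for Tfcp2l1. All 11 probes were well above background on all 12 arrays. The study asked whether induced pluripotent stem (iPS) cells made without Aid differ from those made with it. Gene expression was measured on 1-colour arrays in 6 clones labelled Aid+/+ and 6 labelled Aid-/-, with 1 array per clone.

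The Aid+/+ clones were 967B2, 967B4 and 967B6 (series 967B) and 979B1, 979B3 and 979B4 (series 979B). The Aid-/- clones were 979F1, 979F2 and 979F3 (series 979F) and 981E1, 981E4 and 981E5 (called series E here). All of them came from male embryonic fibroblasts of a mixed C57BL6, DBA and 129S4 background that were homozygous for a Nanog-GFP reporter. The fibroblasts were reprogrammed with retroviruses carrying Klf4, Sox2 and Oct3/4, with c-Myc added in some experiments, and the set used for each clone is not given in the sources used here. The clones were at passage 6 on gelatin, in medium with LIF and puromycin. Each clone is a line grown from 1 colony, so the errors below are the spread between clones, and nothing states how many embryos a series came from. The number in the name of a clone was read as its reprogramming experiment, so that experiment 979 held both genotypes, while the experiment of series E is uncertain. Slide 1 held the arrays of 967B and slide 2 those of 979F, while 979B and series E shared slide 3, the only slide with both genotypes.

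Naive pluripotency is a state found in the inner cell mass of the blastocyst before implantation, and mouse embryonic stem cells keep it in culture with LIF. LIF acts through Stat3, which is known to raise Tfcp2l1 and other targets, while ERK signalling moves cells towards the formative and primed states. The genes are known to act as a network in which Nanog, Esrrb, Tbx3, Tfcp2l1 and the Klf factors bind near one another's genes and those of Oct3/4 and Sox2. Of the 10, Nanog, Esrrb, Tbx3, Klf2, Klf5, Tfcp2l1, Zfp42 (Rex1) and Prdm14 encode DNA-binding proteins. Nr0b1 (Dax1) encodes an orphan nuclear receptor that works mostly as a corepressor, and Tcl1 encodes a coactivator of the kinase Akt and is not a transcription factor.

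The promoters are shown for the 3 genes that moved together most closely between clones (Esrrb, Tcl1 and Tfcp2l1), for Klf2, which differed between series, and for Nanog and Zfp42, whose windows held a searched motif. RefSeq windows (GRCm38.p6) were found for 7 of the 10 genes, and the 250 bases before the start are given, 5′ to 3′ on the strand of the gene. Searched on both strands were the Oct-Sox composite (CATTGT and ATGCAAA with 1 base between them), the octamer ATGCAAAT, the Esrrb element TCAAGGTCA, the STAT element TTCCNGGAA and the Klf element GGGTGTGG. Matches are in capitals. The windows lie at chr12:86360867-86361116 (plus strand, the first of the 2 starts of Esrrb), chr12:105222738-105222987 (minus), chr1:118627695-118627944 (plus), chr8:72318812-72319061 (plus), chr6:122707239-122707488 (plus, the first of the 2 starts of Nanog) and chr8:43307010-43307259 (minus).
Esrrb: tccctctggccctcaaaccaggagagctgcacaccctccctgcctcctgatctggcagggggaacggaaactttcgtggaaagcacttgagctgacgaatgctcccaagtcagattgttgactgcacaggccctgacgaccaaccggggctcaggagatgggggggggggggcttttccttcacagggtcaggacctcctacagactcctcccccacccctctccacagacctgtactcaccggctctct
Tcl1: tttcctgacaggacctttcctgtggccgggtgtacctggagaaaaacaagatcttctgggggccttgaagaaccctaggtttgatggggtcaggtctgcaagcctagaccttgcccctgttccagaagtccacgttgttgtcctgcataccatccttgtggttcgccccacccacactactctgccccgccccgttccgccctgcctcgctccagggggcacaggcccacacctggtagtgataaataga
Tfcp2l1: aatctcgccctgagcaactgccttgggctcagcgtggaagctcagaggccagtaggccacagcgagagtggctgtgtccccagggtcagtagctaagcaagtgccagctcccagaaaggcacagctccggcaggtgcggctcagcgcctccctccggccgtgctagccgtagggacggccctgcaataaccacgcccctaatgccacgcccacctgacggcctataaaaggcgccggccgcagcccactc
Klf2: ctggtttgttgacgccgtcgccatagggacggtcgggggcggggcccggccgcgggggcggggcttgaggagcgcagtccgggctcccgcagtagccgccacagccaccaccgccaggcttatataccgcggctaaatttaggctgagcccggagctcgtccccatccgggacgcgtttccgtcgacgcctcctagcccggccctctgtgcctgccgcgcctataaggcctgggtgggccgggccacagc
Nanog: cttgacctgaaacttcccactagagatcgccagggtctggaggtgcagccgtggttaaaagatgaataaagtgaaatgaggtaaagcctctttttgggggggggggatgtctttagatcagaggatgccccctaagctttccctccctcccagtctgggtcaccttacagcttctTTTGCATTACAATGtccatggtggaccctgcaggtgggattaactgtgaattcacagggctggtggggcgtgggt
Zfp42: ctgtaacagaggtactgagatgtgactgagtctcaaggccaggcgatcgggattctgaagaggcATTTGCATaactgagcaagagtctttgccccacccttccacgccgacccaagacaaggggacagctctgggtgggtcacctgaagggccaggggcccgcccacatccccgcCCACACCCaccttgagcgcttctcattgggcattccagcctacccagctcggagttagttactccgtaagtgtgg

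Among 32851 promoter windows of the same length, 0.00609% held the composite, which are the 2 overlapping windows of Nanog itself and no others. The octamer was in 1.60% of all windows and the Klf element in 3.20%, and among the 10 genes both were in the window of Zfp42. The Esrrb element (0.387% of all windows) and the STAT element (0.913%) were in none of the 9 windows of the 7 genes. The windows of Esrrb, Tcl1, Tfcp2l1 and Klf2 held none of the 5 motifs. A match describes these letters only, and their part in the levels was not tested.

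As background to the levels, the labelled cell type was checked against its markers. All 14 core pluripotency genes listed, Pou5f1 and Sox2 among them, were well above background on all 12 arrays, as were 6 of 10 fibroblast, 5 of 11 endoderm and trophoblast, and 6 of 8 mesoderm and ectoderm markers. The level used throughout is the log2 signal of a probe minus the 75th percentile of its array, which puts that percentile at 0, so levels of different genes are not compared. Before this step the 75th percentiles of the 12 arrays ran from 418 to 509, and no spot was saturated. The genotypes below are those of the labels.

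**Figure D1:**
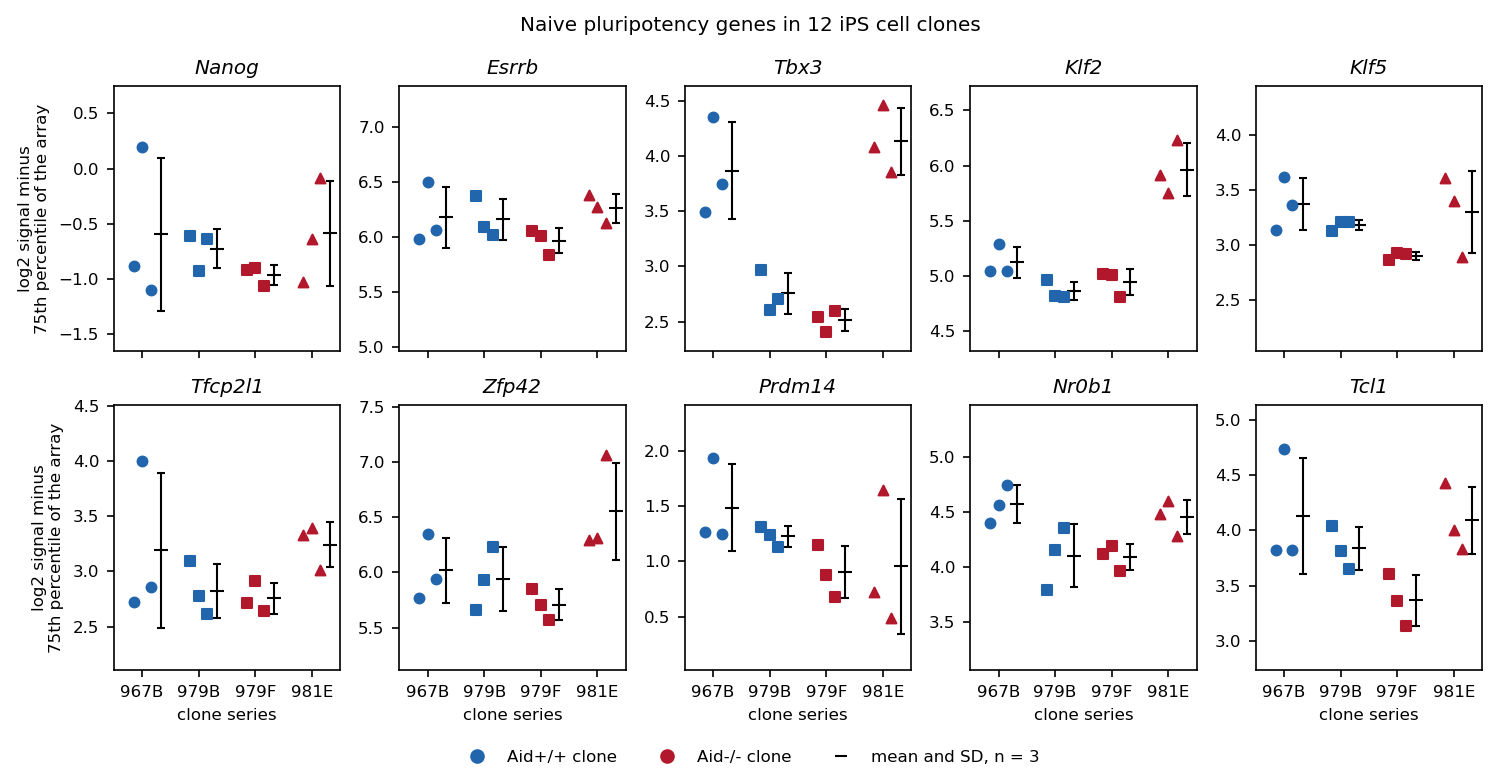
Each panel plots 1 gene, with the log2 signal minus the 75th percentile of the array on the vertical axis (all panels span the same range) and the 4 clone series on the horizontal axis, with series E at the right under the shared start of its clone names. Points are clones, blue for Aid+/+ and red for Aid-/-, and black bars give the mean and SD of 3 clones. Tbx3 was low in all 6 clones of 979B and 979F, and Klf2 was high in the 3 clones of series E.

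The genotypes were compared first, which is the question of the study. At the 11 probes of the naive genes, 0 of 11 differed between the 6 clones labelled Aid-/- and the 6 labelled Aid+/+ in limma at an adjusted p under 0.05 over all probes, where 34 of 55681 probes (0.0611%) did so. At an unadjusted p under 0.05 the number was again 0 of 11, against 13.6% of all probes. The median difference over the 11 probes was -0.06, beside -0.01 over all probes, and no probe separated the genotypes without overlap (2.18% of all probes did). The Aid+/+ and Aid-/- means of Nanog, the homeobox factor that stabilises self-renewal, were -0.66 ± 0.46 and -0.77 ± 0.37 (SD, n = 6). Nanog has several near-identical pseudogenes, and whether its probe also reads them was not checked, so all Nanog values here are uncertain in that respect. Those of Esrrb, an orphan nuclear receptor that can replace Nanog in self-renewal, were 6.17 ± 0.21 and 6.11 ± 0.19.

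The largest differences by size were those of Klf2 and Prdm14. Klf2, a zinc finger factor of the Krüppel family, was at 4.81, 5.00 and 5.29 (lowest, median and highest) in Aid+/+ clones and at 4.81, 5.38 and 6.23 in Aid-/- clones, and these ranges overlapped. The difference was 0.46 with a 95% interval from -0.05 to 0.97 (limma adjusted p = 0.421). Prdm14, which represses primed genes and DNA methyltransferases, was at 1.13, 1.26 and 1.94 in Aid+/+ clones and at 0.49, 0.80 and 1.65 in Aid-/- clones, a difference of -0.43 with an interval from -0.86 to 0.01 (limma adjusted p = 0.377). For the other 9 probes the differences lay between -0.25 (Tcl1) and 0.15 (Zfp42). The 95% interval of Esrrb ran from -0.32 to 0.21, that of Nr0b1 from -0.42 to 0.29 and that of Tbx3 from -0.92 to 0.94. All these intervals treat the 12 clones as independent, although the clones come in series that can differ. They therefore do not bound the genotype difference. With slide as a fixed block, so that genotypes were compared within a slide, the difference was 1.37 for Tbx3 and 1.10 for Klf2. Both lay above the intervals given here, and there too genotype cannot be told apart from series.

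Within slide 3, the only slide with both genotypes, the comparison gave another result. There, series E minus 979B was called at 2 of 11 probes, Tbx3 and Klf2, both higher in series E, where 4.13% of all probes were called. Within experiment 979, 979F minus 979B was called at 0 of 11 probes (0.614% of all probes) and 10 of the 11 differences were negative, with a median of -0.23, beside -0.02 over all probes. Outside experiment 979, series E minus 967B was called at 0 of 11 (0.196%), with a median of 0.01. The difference between the genotype effects of these last 2 comparisons was called at 0 of 11 probes (0.106%) in limma. At an unadjusted p under 0.05 the number was 2 of 11, against 9.85% of all probes. Genotype thus could not be told apart from series in any of these pairs, since each series holds 1 genotype.

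**Figure D2:**
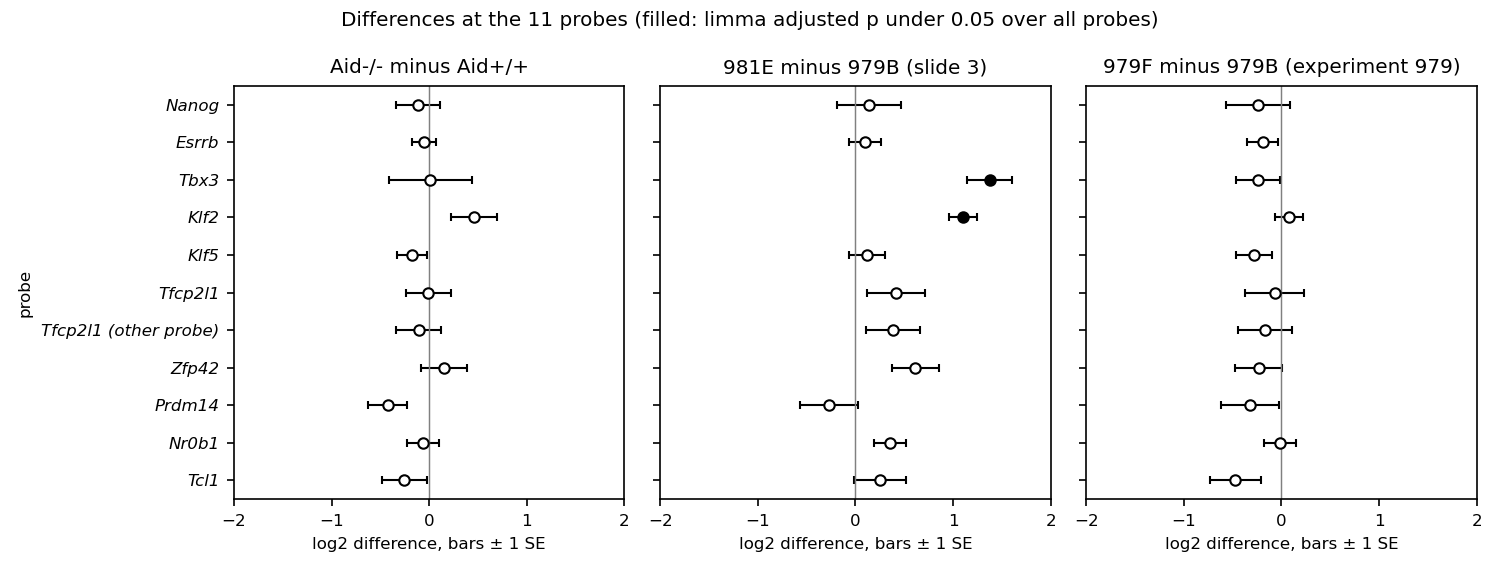
Log2 differences at the 11 probes (rows) between all Aid-/- and Aid+/+ clones, between series E and 979B on slide 3, and between 979F and 979B of experiment 979. Points are differences, bars give 1 SE from limma, and filled points have an adjusted p under 0.05 over all probes. Tbx3 and Klf2 on slide 3 are the filled points.

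Between the 4 series, 2 of the 11 probes, Tbx3 and Klf2, differed in limma's F test at an adjusted p under 0.05, where 4.16% of all probes did. Tbx3 is a T-box factor that can sustain self-renewal without LIF. In series 967B it was at 3.50, 4.36 and 3.75, and in series E at 4.08, 4.46 and 3.86. In series 979B it was at 2.96, 2.60 and 2.70, and in 979F at 2.54, 2.41 and 2.59. All 6 clones of experiment 979 therefore lay below all 6 other clones, with a gap between 2.96 and 3.50 and both genotypes on each side. The F value was 24.8 (limma adjusted p = 0.00985).

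In order of the means, Tbx3 was highest in series E (4.13 ± 0.31), then in 967B (3.87 ± 0.44), 979B (2.76 ± 0.19) and 979F (2.51 ± 0.10; SD, n = 3 each). The first 2 of these, series E and 967B, were not separated (0.27 ± 0.23 SE, limma adjusted p = 0.725), nor were 979F and 979B (-0.24 ± 0.23 SE, limma adjusted p = 0.672). On slide 3, series E was 2.59-fold above 979B (1.37 ± 0.23 SE, limma adjusted p = 0.0118), and without clone 979B3 this call was lost (1.30, limma adjusted p = 0.0523). Against 979F, series E was 3.07-fold higher (1.62 ± 0.23 SE, limma adjusted p = 0.00972; 3.02% of all probes were called). 979F was 2.55-fold below 967B (-1.35 ± 0.23 SE, limma adjusted p = 0.0267; 1.46% of all probes), a call that was lost without 967B6, 979F1, 979F2 or 979F3 in turn (limma adjusted p up to 0.0985). Outside slide 3 a difference between series cannot be told apart from one between slides. 979B was 1.11 below 967B on the log2 scale and missed the threshold (limma adjusted p = 0.0664; 0.711% of all probes), but passed it with another background correction (limma adjusted p = 0.0206).

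Experiment 979 against the other 6 clones, a comparison chosen after the values had been seen, gave -1.36 for Tbx3 (SE 0.16, limma adjusted p = 0.0024). It gave -0.64 for Klf2 (SE 0.10, limma adjusted p = 0.00935), and 3.92% of all probes were called. All 11 probes had a negative difference, with a median of -0.43, beside -0.02 over all probes, of which 46.4% were positive. The next members were Nr0b1 at -0.42 (limma adjusted p = 0.0849, and 0.0380 with quantile normalization) and Tcl1 at -0.51 (limma adjusted p = 0.181). Tbx3 and Klf2 were also the 2 probes among the 11 whose 6 clones of experiment 979 all lay below the other 6 (1.58% of all probes).

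Klf2 had a different order. In series E it was at 5.92, 5.75 and 6.23, and all 3 clones lay above the other 9, which ranged from 4.81 to 5.29 (1.81% of all probes had series E on top in this way). The means were 5.96 ± 0.24 in series E, 5.12 ± 0.14 in 967B, 4.95 ± 0.11 in 979F and 4.86 ± 0.08 in 979B (SD, n = 3). Series E was 2.14-fold above 979B (1.10 ± 0.14 SE, limma adjusted p = 0.00455) and 2.03-fold above 979F (1.02 ± 0.14 SE, limma adjusted p = 0.0101), the latter lost without 979F3 (limma adjusted p = 0.0523). Against 967B the difference was 0.84 ± 0.14 SE and missed the threshold (limma adjusted p = 0.0647), while quantile normalization gave 1.01 (limma adjusted p = 0.017). The other clones were at 5.04, 5.29 and 5.04 in 967B, at 5.02, 5.01 and 4.81 in 979F and at 4.96, 4.82 and 4.81 in 979B. These 3 series were not separated from one another (limma adjusted p of at least 0.597), and the gap between 967B and experiment 979 was narrow, from 5.02 to 5.04.

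Klf2 and Zfp42 are both on chromosome 8. Over the 909 gene probes of this chromosome detected on every array, clone 981E5 had a median of 0.34 above the clones' median, where the other 11 clones lay between -0.05 and 0.03. Klf2 and Zfp42 were both highest in 981E5, at 6.23 and 7.06. Without 981E5, Klf2 in series E was still above 979B (0.97 ± 0.13 SE, limma adjusted p = 0.0123) and above 979F (0.89 ± 0.13 SE, limma adjusted p = 0.0276). Zfp42, the zinc finger gene also known as Rex1 and widely used as a reporter of the naive state, was 0.85 ± 0.24 SE above 979F in series E (limma adjusted p = 0.0935), and it passed the threshold with quantile normalization (limma adjusted p = 0.0474). Without 981E5 this was 0.59 ± 0.21 SE (limma adjusted p = 0.254). Zfp42 was at 6.29 and 6.31 in 981E1 and 981E4, at 5.77, 6.35 and 5.94 in 967B, at 5.66, 5.93 and 6.23 in 979B and at 5.85, 5.71 and 5.57 in 979F. The clones of 979F and 979B lay below all 3 of series E, while those of 967B overlapped with every other series. The share of all probes that separate 1 series from another in this way was not counted, for Zfp42 or for the genes below.

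The remaining members did not pass the test in any pair of series. Nr0b1 was at 4.40, 4.57 and 4.74 in 967B, at 4.48, 4.60 and 4.29 in series E, at 3.79, 4.16 and 4.35 in 979B and at 4.11, 4.19 and 3.96 in 979F. All clones of 979B and 979F lay below those of 967B, and 979F also below those of series E. In experiment 979 against the others this gene missed the threshold, as given above. The probe of Nr0b1 is printed at 7 to 10 usable spots per array, whose SD within an array was 0.03 to 0.09, against 0.28 between the 12 clones. Klf5, a Krüppel-family factor of the inner cell mass, was at 2.87, 2.93 and 2.92 in 979F, at 3.13, 3.21 and 3.21 in 979B, at 3.14, 3.62 and 3.36 in 967B and at 3.61, 3.40 and 2.89 in series E. All 3 clones of 979F were below the other clones apart from 981E5.

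Tcl1 was at 3.60, 3.36 and 3.13 in the 3 clones of 979F, and these lay below the other 9 clones (3.65 to 4.73). Tbx3 and Tcl1 were the 2 probes of the 11 with this arrangement, which 3.78% of all probes showed. The Aid+/+ series had Tcl1 at 3.82, 4.73 and 3.82 (967B) and at 4.04, 3.81 and 3.65 (979B), and in series E it was at 4.43, 4.01 and 3.83. Tfcp2l1, a CP2-family factor downstream of LIF, was at 2.72, 4.00 and 2.85 in 967B, at 3.09, 2.77 and 2.61 in 979B, at 2.72, 2.91 and 2.64 in 979F and at 3.33, 3.39 and 3.02 in series E. Apart from 967B4, the values lay between 2.61 and 3.39. Its other probe followed it with a Pearson r of 0.984 over 12 clones and differed from it in no call.

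Esrrb was at 5.98, 6.50 and 6.06 in 967B, at 6.37, 6.09 and 6.02 in 979B, at 6.05, 6.01 and 5.84 in 979F and at 6.38, 6.27 and 6.13 in series E. The 4 series overlapped, apart from 979F, which lay below series E. Nanog was at -0.89, 0.19 and -1.10 in 967B, at -0.62, -0.93 and -0.64 in 979B, at -0.92, -0.90 and -1.07 in 979F and at -1.03, -0.64 and -0.08 in series E. Here 967B held both the highest and the lowest clone and spanned the other 3 series. Prdm14 was at 1.27, 1.94 and 1.25 in 967B and at 1.15, 0.88 and 0.68 in 979F, which did not overlap (-0.58 ± 0.29 SE, limma adjusted p = 0.369).

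Over all 12 clones, the spread was largest for Tbx3, with an SD of 0.76, higher than in 96.8% of the genes well above background on all arrays. It was smallest for Esrrb, with an SD of 0.20 (31.3%), while the median gene had 0.25. Within series, Tbx3 had an SD of 0.29 and Klf2 of 0.16, against 0.43 for Nanog and 0.39 for Tfcp2l1. For Nanog and Tfcp2l1 this was close to the SD over all 12 clones (0.40 for both), while for Tbx3 and Klf2 it was well below it (0.76 and 0.48).

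**Figure D3:**
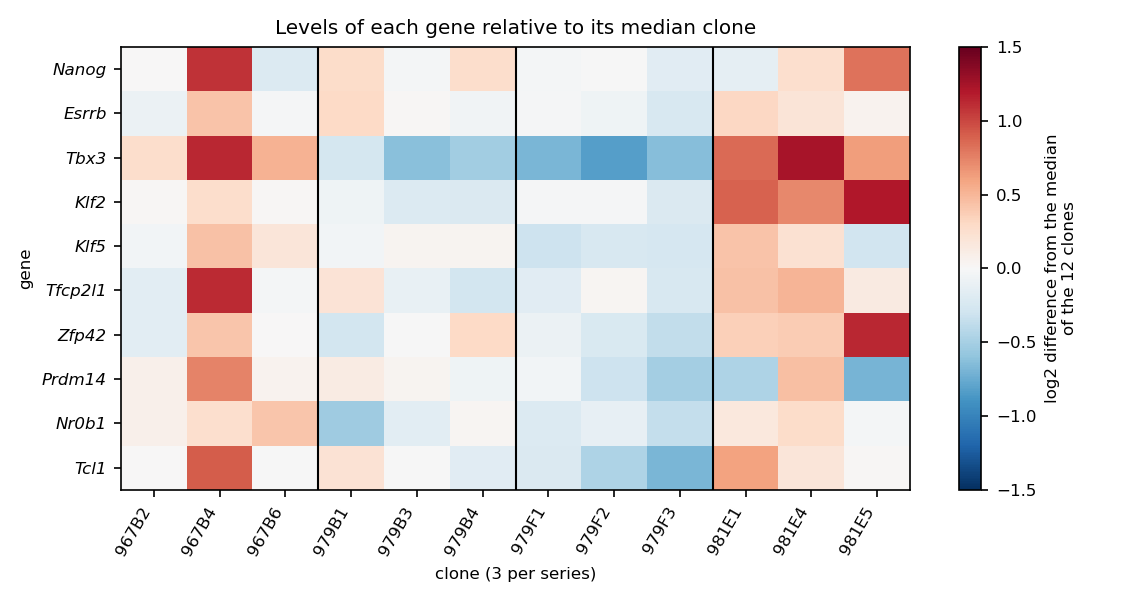
Each cell is the log2 difference of 1 gene (row) in 1 clone (column, 3 per series) from that gene's median over the 12 clones. Clone 967B4 is above the median for all 10 genes, and the 979F clones are mostly below it.

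By clone, 967B4 stood apart. It had the highest level of 6 of the 10 genes, where it had the highest level of 23.4% of 13507 genes detected on all arrays, and it was above the clones' median for all 10 (55.8% of genes). The median of its 10 differences from the clones' medians was 0.60, beside 0.04 over all genes. Nanog, at 0.19 in 967B4, was between -1.10 and -0.08 in the other 11 clones. Prdm14 in 967B4 stood above the other clones of its series in the same way. Clone 981E4 was also above the median for all 10 genes (42.9% of genes), while 979F1 and 979F3 were above it for none (43.0% and 45.5%).

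Clone 981E5 was uneven. It had the highest Klf2 and Zfp42 and the second highest Nanog (-0.08), but also the lowest Prdm14 (0.49) and a Klf5 of 2.89, where 981E1 and 981E4 had 3.61 and 3.40. Across the 3 clones of series E, Prdm14 was at 0.72, 1.65 and 0.49, while the 3 clones of 979B on the same slide were at 1.32, 1.24 and 1.13.

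The genes varied together between clones. The values of Tbx3 and Klf2 fall into separate groups of clones, so the correlations over 12 clones are given for the 28 pairs of the other 8 genes. Their median Pearson r was 0.52, with 27 of the 28 above 0, beside 0.02 and 51.7% for pairs of the 13507 detected genes. With deviations from the series means the median was 0.43 and 20 pairs were above 0 (background 0.01 and 50.7%). Within Aid+/+ clones the median was 0.72 and within Aid-/- clones 0.55, but within slide 3 it was 0.10. It was 0.30 without 967B4.

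**Figure D4:**
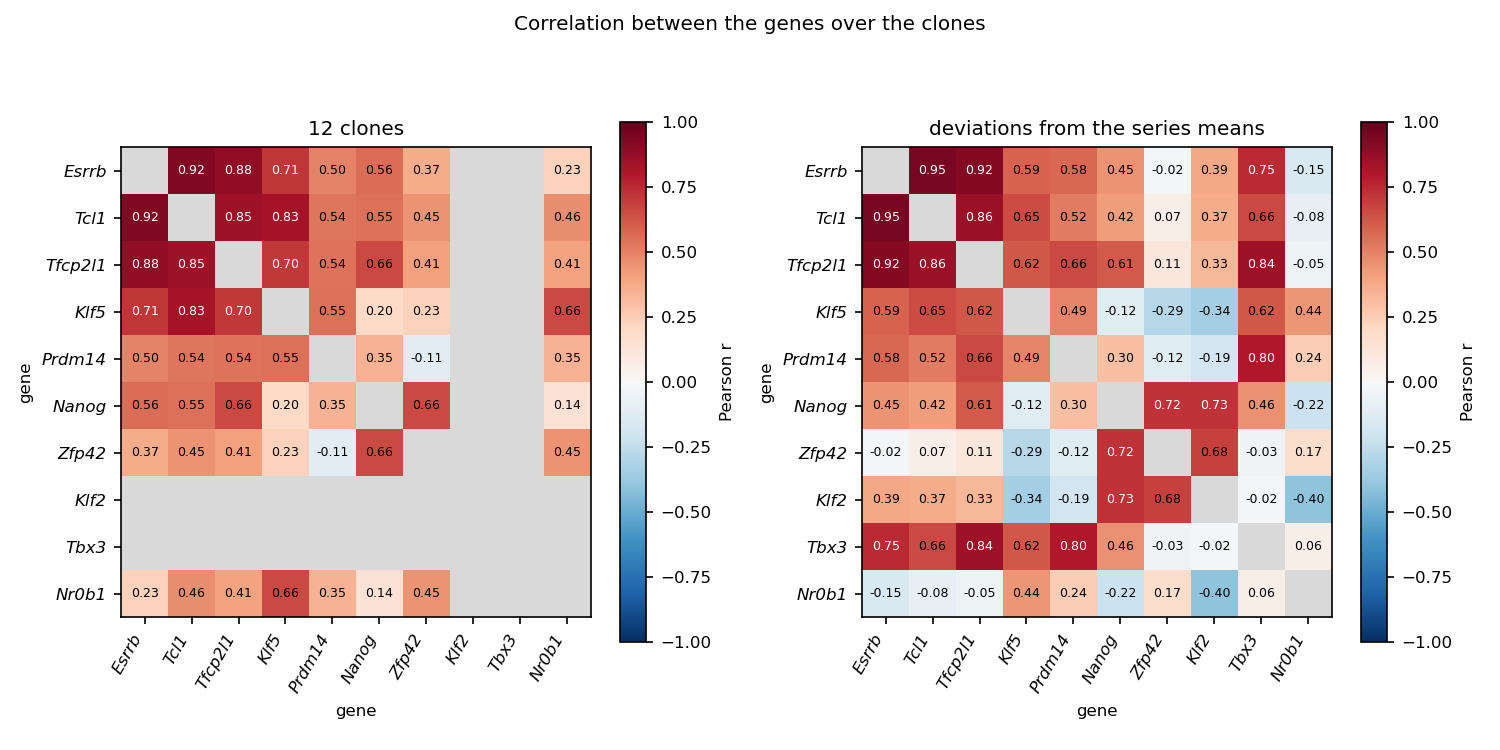
Pearson r between each pair of the 10 genes over the 12 clones (left) and over deviations from the means of the 4 series (right), with red above 0 and blue below. The diagonal is grey, as are the pairs of Tbx3 and Klf2 on the left, whose clones fall into groups. Esrrb, Tcl1 and Tfcp2l1 have r between 0.849 and 0.947 with each other in the 2 panels.

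Permutation p-values were adjusted over all 45 pairs of the 10 genes. Of the 28 pairs, 6 had an adjusted p under 0.05 by Pearson r and 4 by Spearman rho. Esrrb and Tcl1 had r = 0.922 (permutation adjusted p = 0.00090) and Spearman rho = 0.881 (permutation adjusted p = 0.0146). The r was 0.830 without the 2 clones farthest in Esrrb (967B4 and 981E1), 0.947 for deviations from series means, 0.894 within Aid+/+ clones, 0.982 within Aid-/- clones and 0.895 within slide 3. Both genes are on chromosome 12. Over its 612 gene probes detected on every array, the median was 0.09 above the clones' median in 967B4 and between -0.04 and 0.05 in the other clones. The part of this in the correlation was not tested. Esrrb and Tfcp2l1 had r = 0.883 (permutation adjusted p = 0.00247), rho = 0.846 (permutation adjusted p = 0.015), and r = 0.794 without 967B4 and 981E1. Tfcp2l1 and Tcl1 had r = 0.849 (permutation adjusted p = 0.00555), rho = 0.825 (permutation adjusted p = 0.0163), and r = 0.754 without 967B4 and 981E4. For deviations from series means, permuted within series, no pair had an adjusted p under 0.05. The lowest was that of Esrrb and Tcl1 (exact permutation adjusted p = 0.0694).

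The other 3 pairs all involved Klf5, and they weakened more without the clones farthest from the median. Klf5 with Tcl1 went from 0.828 to 0.603, Klf5 with Esrrb from 0.711 to 0.390, and Klf5 with Tfcp2l1 from 0.704 to 0.367, in each case without 967B4 and 981E1. By rho none of these 3 passed, and that of Klf5 and Tcl1 was 0.643 (permutation adjusted p = 0.0766). Klf5 and Nr0b1 passed by rho (0.734, permutation adjusted p = 0.0467) but not by r (0.663, permutation adjusted p = 0.0682). Nanog had r = 0.662 with Tfcp2l1 and 0.660 with Zfp42, which did not pass (permutation adjusted p = 0.0716 for both). Without 967B4 and 981E5 these were 0.234 and 0.257. Without 967B4 alone, Nanog with Tfcp2l1 had r = 0.240 and Nanog with Zfp42 r = 0.739. Zfp42 and Prdm14 were the pair of the 28 with a negative r (-0.113).

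Tbx3 was compared with the others within the 6 clones of experiment 979 and within the other 6. With Esrrb it had r = 0.736 and 0.836, with Tcl1 0.719 and 0.640 and with Tfcp2l1 0.428 and 0.860. With Klf2 it had -0.156 and 0.343, and with Nr0b1 -0.558 and 0.294, so these pairs did not keep one direction. With 6 clones these values are imprecise, and the lowest of the 18 exact permutation p-values was 0.025, unadjusted. Among the 9 clones outside series E, Klf2 had r between 0.390 (Zfp42) and 0.814 (Tfcp2l1) with the 8 genes other than Tbx3.

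**Figure D5:**
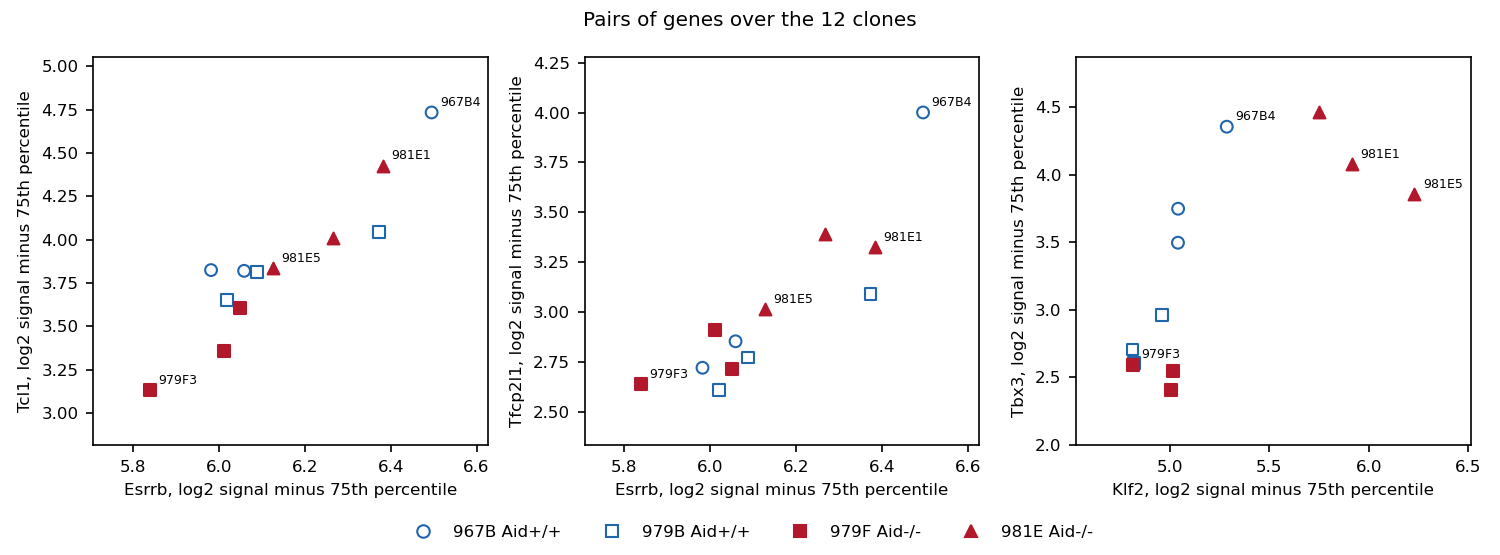
Levels of Tcl1 and Tfcp2l1 against Esrrb, and of Tbx3 against Klf2, as log2 signal minus the 75th percentile of the array. Each point is 1 of 12 clones, open blue for Aid+/+ and filled red for Aid-/-, with the shape giving the series. In the left and middle panels 967B4 lies at the top right and 979F3 at the left. In the right panel series E and 967B lie apart from each other and from experiment 979, whose series 979B and 979F lie close together.

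For each gene, the gene outside the 10 with the highest Pearson r over the 12 clones is given as a description. These were Cep55 for Nanog (0.951), S100a13 for Esrrb (0.930), Ube2l6 for Tbx3 (0.983), Lemd2 for Klf2 (0.977) and Exoc6b for Klf5 (0.954). They were Trnp1 for Tfcp2l1 (0.966), Mterf3 for Zfp42 (0.943), Cenpx for Prdm14 (0.954), Med7 for Nr0b1 (0.897) and Dsg2 for Tcl1 (0.953). Each was chosen among 13507 genes for its r, so the values carry no test.

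The genes around the naive network were described with lists of 14 core pluripotency genes, 15 other naive-state genes, 15 genes of the LIF, BMP and Wnt pathways, 10 of the ERK pathway and 12 formative and primed genes. Between genotypes, limma called 0 of 21, 0 of 20, 0 of 22, 0 of 14 and 0 of 14 of their probes. Over all probes 34 of 55681 (0.0611%) were called, so lists of this size would hold few or none in any case. Their median differences were -0.06, 0.01, 0.01, 0.08 and -0.36, beside -0.01 over all probes.

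Between series, single genes of these lists passed. In the F test over the 4 series these were 1 of 20 probes of other naive-state genes (Klf3) and 2 of 14 of the ERK list (Egr1 and Etv4), with 0 in the core, the LIF, BMP and Wnt, and the formative and primed lists. Over all probes 4.16% were called in this test and 4.13% in series E minus 979B, so single calls in lists of this size are near the background share. Klf3, a Krüppel-family repressor, was 1.11 ± 0.22 SE higher in series E than in 979B (limma adjusted p = 0.024), the 1 of 20 probes of other naive-state genes that did. In series E it was between 3.75 and 4.42, and in the other 9 clones between 2.52 and 3.28, so series E lay above the other clones, as for Klf2. Id3, a target of BMP signalling, was 1.88 ± 0.45 SE higher in series E than in 979B (limma adjusted p = 0.0466), the 1 of 22 in its list. Egr1, an immediate early gene of ERK signalling, was 2.41 ± 0.42 SE higher in series E than in 979F (limma adjusted p = 0.0202) and -2.29 ± 0.42 SE in 979F minus 967B (limma adjusted p = 0.0347).

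Etv4, a feedback target of ERK, was -1.23 ± 0.23 SE in 979B minus 967B (limma adjusted p = 0.0432), and lay between 0.52 and 0.64 in 979B and between 1.52 and 1.92 in 979F. Otx2, a formative factor, was -0.78 ± 0.17 SE in experiment 979 against the other clones (limma adjusted p = 0.0334). It was the 1 of 14 formative and primed probes called there, where 3.92% of all probes were called. The median of that list was 0.19, in the other direction. The clones overlapped in Otx2, since 1 clone of series E was at 3.85 and experiment 979 reached 4.04. In series E minus 979B, the comparison on 1 slide, no core, ERK, or formative and primed probe was called, and the medians of these lists were -0.14, 0.24 and -0.44, beside 0.02 over all probes.

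Of the markers of other cell types, the F test over the 4 series called 0 of 10 fibroblast, 0 of 14 endoderm and trophoblast, and 0 of 11 mesoderm and ectoderm probes. The summed linear level of the 10 fibroblast markers lay between 32.8 and 47.5 in 979F, 22.3 and 39.0 in series E, 16.8 and 25.2 in 979B and 2.44 and 20.9 in 967B. The fibroblast gene Postn was higher in 979F than in 967B (2.90 ± 0.58 SE, limma adjusted p = 0.0431), but it was well above background on only 10 of 12 arrays and lay between -7.01 and -4.26 in 967B, so the size of this difference is uncertain. Lum was well above background on no array. The sum of the 11 endoderm and trophoblast markers was 9.28 to 11.1 in 979F and 14.3 to 44.3 in the other series. Such a linear sum follows the brightest genes of a list. Over the 14 probes of this list the median log2 difference was 0.20 in 979F minus 967B and -0.02 in 979F minus 979B. It was 0.82 in series E minus 979F. By this median series E was thus higher than 979F, 979B was nearly level with it and 967B was lower. The sum of the 8 mesoderm and ectoderm markers, of which Mesp1 and Mixl1 were well above background on no array, lay between 13.3 and 16.7 in all series. Nes among them was 0.70 ± 0.14 SE higher in series E than in 979F (limma adjusted p = 0.0323). It was the 1 of 11 probes of this list called there (3.02% of all probes). The median of the list in that comparison was -0.45, in the other direction. The part of these markers in the levels of the naive genes was not tested. In bulk samples, fewer cells with a transcript and less transcript per cell cannot be told apart.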

How the data were processed

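Total RNA of 12 clones was labelled with Cy3 and hybridised to Agilent mouse arrays by the authors, who read the spots with Feature Extraction 10.7.3.1. The deposited spot tables hold processed intensity (background-subtracted, not normalized between arrays) and median intensity, and the authors also deposited log2 values with the 75th percentile at 0, named in their methods as a 75% normalization.

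From the processed intensities, log2 was taken, control and outlier spots were left out, repeated spots were averaged, and every array was then shifted to put its 75th percentile at 0. The authors' log2 values differed by a median of at most 0.00678. Accessions were matched to RefSeq symbols (27235 of 28685). limma 3.58.1 (R 4.3.3) was fitted to all 55681 probes, with 1 mean per genotype or per series, and p-values were adjusted by Benjamini-Hochberg over all of them at 0.05. Genes are named by membership, by passing that test, or as the most alike gene. For each gene the probe with the highest mean was used. Correlations used 100000 permutations over 12 clones, or exact ones over 6. Python 3.11.15 was used.

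The genes, lists and some tests were chosen with earlier results of these data known. Comparisons of 967B with 979B or 979F, of series E with 979F and of experiment 979 with the rest, and the correlations within experiment 979 and within the other clones, were added after the data were seen. The fits were tested on simulated data. The check of the genotype labels by expression is not reported here. The labels do not say whether clones of a series share an embryo, so p-values measure the spread between these clones. The alternatives were background correction, normalization, percentile over detected probes, the deposited log2 values, filters on dim probes, an intensity trend, slide or series as a block, the methods' t-test, and leaving out each clone. The number of arrays limits the precision.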

Additional observations from a re-analysis of the deposited data

Results flagged for a closer look

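Of the 22 groups of 6 clones formed by the 11 probes and 2 genotypes, 5 held a clone that stood apart from the rest by its gap to the nearest clone relative to the range of the group. A nominal rate of 1 in 20 groups would flag 1.1 of 22, but the share of all probes flagged by this rule was not counted. Clone 967B4 had the highest level of 23.4% of the 13507 genes detected on all arrays, so the flags are not particular to these genes. All 5 were clone 967B4 among the Aid+/+ clones, and the 5 values share 1 array. Nanog was at 0.19 there, and between -1.10 and -0.62 in the other 5 clones. Tfcp2l1 was at 4.00 (others 2.61 to 3.09) and at 3.52 at its other probe (others 2.19 to 2.58). Prdm14 was at 1.94 (others 1.13 to 1.32) and Tcl1 at 4.73 (others 3.65 to 4.04). Without 967B4, the genotype difference of Nanog went from -0.11 to 0.06, that of Tcl1 from -0.25 to -0.10 and that of Prdm14 from -0.43 to -0.31, and none was called with or without it. No cause was tested.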

How the results depend on the processing

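Between genotypes, limma called 0 of the 11 probes under every alternative except slide as a fixed block, which called 2. That fit draws the genotype difference from slide 3 alone, so it equals series E minus 979B, where 4.13% of all probes were called. The fit gave 1.37 for Tbx3 (limma adjusted p = 0.0118) and 1.10 for Klf2 (limma adjusted p = 0.00455). It also turned the sign of Nanog (0.14), Esrrb (0.10), Klf5 (0.12), both probes of Tfcp2l1 (0.42 and 0.38), Nr0b1 (0.35) and Tcl1 (0.25). Quantile normalization turned that of Esrrb (0.088), Tfcp2l1 (0.060) and Nr0b1 (0.031), and for Tfcp2l1 so did the percentile over detected probes (0.047) and slide as a random block (0.047). None of these turned values was called. The methods' t-test called 0 of the 11 at a p under 0.05 both before and after Benjamini-Hochberg adjustment.

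The calls of Tbx3 and Klf2 between all series held under each alternative. For series E minus 967B, 1 probe (Klf2) was called in place of 0 with normexp, quantile normalization, the percentile over detected probes, both filters on dim probes and the intensity trend. For 979B minus 967B, 1 (Tbx3) was called with normexp, both filters and the trend. Leaving out each clone gave 1 to 2 calls for series E minus 979B and for series E minus 979F, 0 to 1 for 979F minus 967B, and the main number for the other comparisons. Genotype differences that changed sign without some clone ranged from -0.25 to 0.058 for Nanog, -0.11 to 0.0086 for Esrrb, -0.22 to 0.22 for Tbx3, -0.089 to 0.19 and -0.19 to 0.083 for the probes of Tfcp2l1, -0.033 to 0.27 for Zfp42 and -0.17 to 0.018 for Nr0b1. Prdm14 in experiment 979 against the others ranged from -0.27 to 0.019.

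The median r over all 45 pairs, with those of Tbx3 and Klf2 included, was 0.50. It was 0.74 within Aid+/+ clones, 0.31 within slide 3, and 0.40 (without 967B4) to 0.65 (without 981E5) leaving out each clone. For the 28 pairs of the other 8 genes the median was 0.30 without 967B4 and 0.10 within slide 3. The causes were not tested. No paired analysis was possible because the replicate numbers only name colonies and pair no clones across genotypes. The 12 arrays limit what can be called, and all 11 probes were above background, so the values do not rest on dim signal.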
